A study of Mus musculus with 24 samples.

Results

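The fatty acid elongases and desaturases described here are the elongases Elovl1, Elovl2, Elovl3, Elovl5 and Elovl6 and the desaturases Fads1, Fads2 and Scd1. They were taken as every probe that carries no control mark and whose gene name in the scanner files is 1 of these 8 symbols, which gave 8 of 37325 gene names and 19 of 56605 probes. Of the 19, 9 belong to elongases and 10 to desaturases. Liver RNA of C57BL/6J mice was measured on 24 single-colour Agilent arrays in 4 groups of 6. By their labels the groups are male mice on a pesticide-enriched diet, male mice on the control diet, female mice on the pesticide diet and female mice on the control diet. Each diet was given for 52 weeks, and every sample carries an age label of 68 weeks. The labels name no mouse for a sample, so p-values measure the spread between samples.

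Fatty acid elongation takes place in the endoplasmic reticulum, where an Elovl enzyme condenses an acyl-CoA with malonyl-CoA and further enzymes complete the cycle by reduction, dehydration and a second reduction. Each Elovl enzyme prefers a class of chains. Elovl1 and Elovl3 act on saturated and monounsaturated chains, Elovl6 lengthens palmitate, and Elovl2 and Elovl5 lengthen polyunsaturated chains. Scd1 puts the first double bond into saturated chains, and Fads2 and Fads1 are the delta-6 and delta-5 desaturases of polyunsaturated fatty acid synthesis. In mouse liver Elovl6, Scd1, Fads1 and Fads2 are known targets of the lipogenic factor SREBP-1c, and Elovl3 is known for higher transcript levels in males than in females.

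The labels of sex and the sex-linked transcripts went apart, which bears on every comparison of diet or labelled sex below. Xist, the RNA of the inactive X chromosome in female cells, averaged 8.24 ± 0.11 in the labelled male pesticide group, against 5.08 ± 0.10 in labelled male control, and 8.21 ± 0.16 in the labelled female pesticide group, against 5.12 ± 0.24 in labelled female control (log2 signal, SD, n = 6). The Y-linked gene Eif2s3y averaged 5.08 ± 0.15 in the labelled male pesticide group, against 10.94 ± 0.05 in labelled male control, and 5.13 ± 0.16 in the labelled female pesticide group, against 10.99 ± 0.17 in labelled female control. Ddx3y, Kdm5d and Uty, also Y-linked, followed Eif2s3y, and no array departed from this pattern. The diet label and the sex-linked transcripts therefore coincide on all 24 arrays and cannot be told apart, and the groups are called "labelled" throughout. Median spot signals were 63 to 109 per array, and 29935 to 39032 probes per array were well above background. Each of 3 slides carried 8 arrays, 2 of each group.

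Because a probe reports only the stretch of transcript it hybridises to, the probes that carry the results are shown here by the first 30 of their 60 bases, in the direction the files give. They are the only Elovl3 probe, both Scd1 probes, and for Fads1 and Fads2 the brightest probe and 1 further probe each, designed on the cDNA clones AK080706 and AK031337, whose deviations are compared below.
Elovl3 A_66_P123297: cctccgtggcactaagggtatgggagaatg
Scd1 A_52_P682382: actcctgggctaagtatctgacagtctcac
Scd1 A_55_P2743499: agtttctacacaatccaaggaggaaactaa
Fads1 A_51_P358112: gagaatataggaacatgcccggagagacct
Fads1 A_55_P2732843: tgagtacagctggcttctgtatctctagat
Fads2 A_51_P364609: gtgagttcactgaagaagtctggggagctg
Fads2 A_55_P2729398: cagccttgacatatcatttcttaaatgagc
Positions are those of the file headers, on build mm9. The Elovl3 probe (NM_007703) lies at chr19:46209325-46209384 on the + strand. The brighter Scd1 probe (NM_009127) lies at chr19:44469387-44469446 on the - strand and the other (BC114417) at chr19:44471140-44471199 on the + strand. The brightest Fads1 probe (NM_146094) lies at chr19:10270530-10270589 and the other (AK080706) at chr19:10261805-10261864, both on the + strand. The brightest Fads2 probe (NM_019699) spans chr19:10138750-10139180, which is 431 bases for 60 probe bases, and the other (AK031337) lies at chr19:10161035-10161094, both on the - strand. The AK080706 and AK031337 probes each lie between other probes of their gene. Of the Fads2 probes not shown, A_65_P20641 and A_55_P2739989 were also designed on clones (AK215784 and AK192544). No annotation of this build was used, so exon, intron or untranslated region is not stated for them.

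Elovl3 was far lower on the labelled pesticide arrays than on the labelled control arrays in both labelled sexes. Its log2 signal (median spot signal, quantile normalized) ran from 5.81 through a median of 6.43 to 7.49 over the 6 labelled male pesticide arrays, against 14.85, 14.96 and 15.48 over the labelled male control arrays. In labelled female pesticide arrays it ran from 6.72 through 7.69 to 8.13, against 13.43, 14.78 and 15.22 in labelled female control arrays. The highest labelled pesticide array thus lay more than 5 log2 units under the lowest labelled control array. The probe was well above background on all 24 arrays. Signals were not background-subtracted, so the low end includes background, and an Elovl1 probe too dim to be tested averaged 5.12 in the labelled male pesticide group. Group means were 6.52 ± 0.61 in the labelled male pesticide group, against 15.08 ± 0.25 in labelled male control, and 7.60 ± 0.50 in the labelled female pesticide group, against 14.63 ± 0.62 in labelled female control (SD, n = 6).

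**Figure D1:**
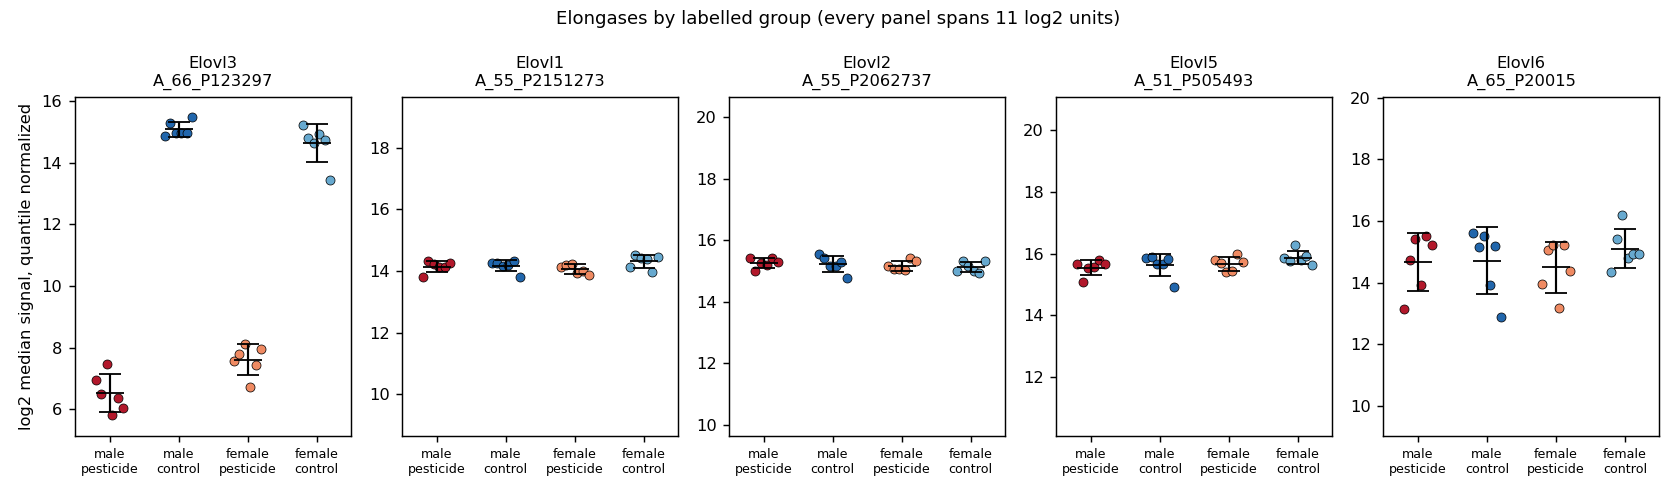
Log2 median signal (quantile normalized) of each elongase's brightest probe on every array, by labelled group; points are arrays in replicate order, bars the mean and SD of 6 arrays, and every panel spans the same number of log2 units. Elovl3 sat between 5.81 and 8.13 on labelled pesticide arrays and between 13.43 and 15.48 on labelled control arrays, while the groups overlapped in the panels of Elovl1, Elovl2, Elovl5 and Elovl6.

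In limma's fit over all tested probes, Elovl3 was lower by a log2 fold change of -8.56 (SE 0.28, adjusted p = 1.4e-17) in labelled male pesticide than in labelled male control, a 377-fold difference with a 95% interval of 254 to 561. In the labelled females the log2 fold change was -7.03 (SE 0.28, adjusted p = 9.1e-16), a 131-fold difference with an interval of 87.8 to 194. Averaged over the labelled sexes it was -7.79 (SE 0.20, adjusted p = 3.2e-20). Ordered from the lowest log2 fold change, the probe stood at place 2 of 32078 in the labelled males and at place 4 in the labelled females. The direction and the call held on each slide alone, where the labelled males gave -8.36, -8.31 and -9.01 and the labelled females -7.32, -7.37 and -6.39 on slides 1, 2 and 3. The scanner's background-subtracted signal scaled to the 75th percentile gave -9.38 (668-fold) in the labelled males, and the median signal with the same scaling gave -8.65 (401-fold). With normexp background correction it was -8.15 (284-fold). The size of the fold thus depends on how background is treated, which the interval of 254 to 561 does not take in. In bulk liver RNA, less Elovl3 RNA per cell and fewer cells that hold it cannot be told apart.

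Elovl3 is also known from brown fat and the sebaceous glands of skin, so adipocyte markers are given beside it. Of 8 listed, Adipoq, Plin1 and Ucp1 were too dim to be tested, and of the other 5 only Cfd, the fat cell serine protease adipsin, passed, with a log2 fold change of -3.39 (SE 0.46, adjusted p = 3.8e-06). Cfd ran from 5.21 to 5.71 in the labelled male pesticide group, against 6.65 to 9.49 in labelled male control, and from 5.52 to 5.98 in the labelled female pesticide group, against 5.69 to 11.48 in labelled female control. The summed level of the 5 tested markers was 10.57 to 11.13 in the labelled male pesticide group, against 10.64 to 11.57 in labelled male control, and 10.79 to 11.17 in the labelled female pesticide group, against 10.89 to 12.35 in labelled female control. The part of these cells in the Elovl3 result was not tested, and Adipoq, Plin1 and Ucp1 were not well above background on 4 arrays of any group. Cfd was well above background on 1 labelled male pesticide array against 6 labelled male control arrays, and on 2 labelled female pesticide arrays against 5 labelled female control arrays. Hepatocyte markers, among them Alb and Apoa1, had a summed level between 20.96 and 21.08 on all arrays. Quantile normalization gives every array the same set of values, which holds the brightest probes nearly level. The share of hepatocytes was therefore not tested by this sum.

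The change of Elovl3 against each of the other elongases was described within arrays, so that anything that scales a whole array cancels. Probes bind with different strength, so only the change of such a difference is read, not its level. The difference of the log2 signals of Elovl3 and Elovl2 averaged -8.73 ± 0.60 in the labelled male pesticide group, against -0.14 ± 0.46 in labelled male control, and -7.57 ± 0.51 in the labelled female pesticide group, against -0.50 ± 0.75 in labelled female control. Against the 4 other elongases the change in this difference was between -8.59 and -8.47 in the labelled males and between -7.07 and -6.42 in the labelled females. The arrays of the 2 diets did not overlap in any of these 8 comparisons. All 8 share the Elovl3 probe, whose own diet ranges lay far apart, so they are not separate results. Because the members were chosen with earlier results of these data known, these differences are a description and carry no test.

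Of the 18 member probes that passed the filter on dim values, Elovl3 was the only one that passed in the labelled males, 1 of 18, where 22.2% of all tested probes passed. In the labelled females it was again 1 of 18, against 18.3% of all probes. Over the mean of the labelled sexes 2 of 18 passed, both lower, against 36.1% of all probes; the second was an Scd1 probe described below. The 6 arrays of each group did not overlap for 1 of 18 member probes in the labelled males, against 10.2% of all tested probes, and for 1 of 18 in the labelled females, against 7.82%. The median log2 fold change over the 18 probes was -0.07 in the labelled males and -0.11 in the labelled females, beside -0.03 and -0.02 over all tested probes. The remaining member probe, A_55_P2721757 of Elovl1, was well above background on 1 of 24 arrays and was not tested.

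**Figure D2:**
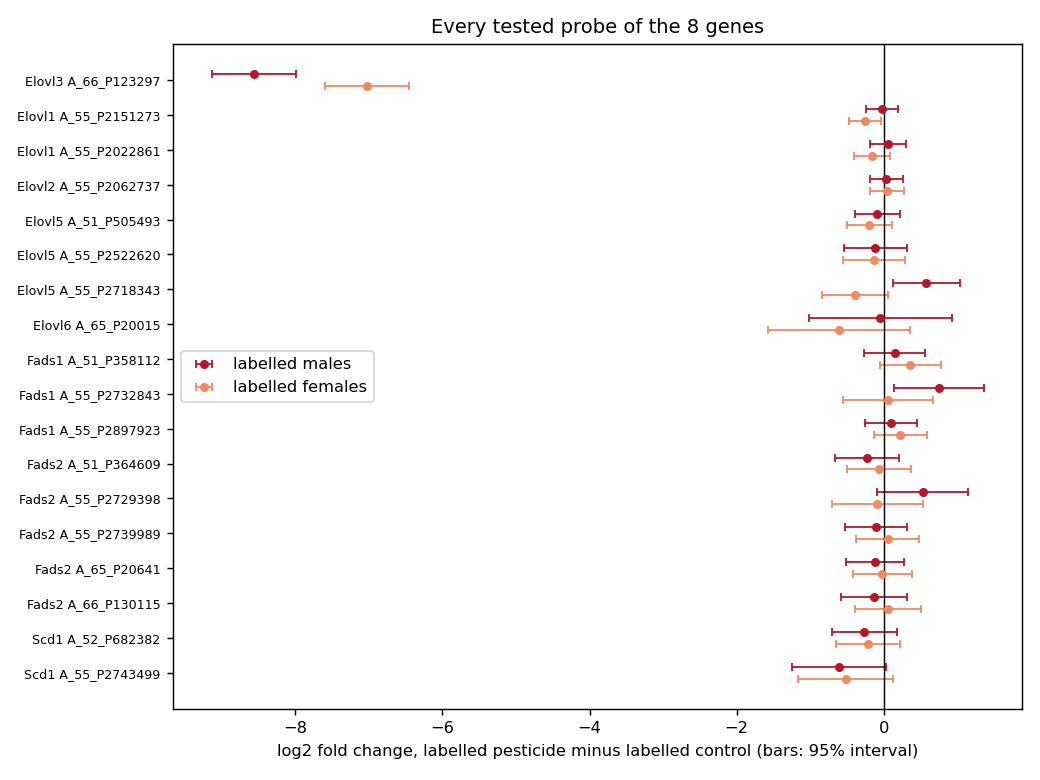
Log2 fold change of labelled pesticide minus labelled control for each of the 18 tested member probes, in labelled males and labelled females; points are limma estimates and bars their 95% intervals. Elovl3 lies at -8.56 and -7.03, and every other probe lies between -0.61 and 0.75.

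The other elongases of saturated and monounsaturated chains gave no difference that passed. Elovl1, which makes very long chains for sphingolipids, had a log2 signal of 13.80 to 14.32 (median 14.18) in the labelled male pesticide group, against 13.81 to 14.33 (median 14.22) in labelled male control. In the labelled females it was 13.86 to 14.23 (median 14.07) on pesticide and 13.97 to 14.51 (median 14.42) on control, where the ranges overlapped although the medians stood apart. Its log2 fold changes were -0.03 (95% interval -0.24 to 0.19) in the labelled males and -0.25 (-0.47 to -0.04, adjusted p = 0.097) in the labelled females. Scaling to the 75th percentile in place of quantile normalization brought the mean over the labelled sexes past the threshold, at -0.19 (adjusted p = 0.042). Its second tested probe had log2 fold changes of 0.05 and -0.16.

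Elovl6 had the widest spread between arrays of 1 group among the members. It ran from 13.16 through 14.98 to 15.52 in the labelled male pesticide group, against 12.88 through 15.18 to 15.61 in labelled male control. In the labelled females it ran from 13.18 through 14.71 to 15.21 on pesticide and from 14.35 through 14.95 to 16.20 on control. Every group overlapped every other. The spread within groups was an SD of 0.89, wider than that of 99.6% of all tested probes, whose median was 0.18. The log2 fold changes were -0.05 (95% interval -1.02 to 0.92) in the labelled males and -0.61 (-1.58 to 0.36, adjusted p = 0.40) in the labelled females. The interval in the labelled males leaves room for a log2 difference of up to 1.02 for Elovl6.

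Neither elongase of polyunsaturated chains gave a difference that passed. Elovl2, which acts late on the way to docosahexaenoic acid, had a median of 15.27 (15.00 to 15.43) in the labelled male pesticide group, against 15.22 (14.77 to 15.54) in labelled male control, and 15.11 (15.03 to 15.42) in the labelled female pesticide group, against 15.09 (14.94 to 15.34) in labelled female control. Its log2 fold change was 0.03 (95% interval -0.20 to 0.26) in the labelled males and 0.04 (-0.19 to 0.27) in the labelled females. All groups overlapped.

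Elovl5, which lengthens the products of Fads2, was read by 3 probes. Its brightest probe had a median of 15.62 (15.08 to 15.79) in the labelled male pesticide group, against 15.75 (14.92 to 15.89) in labelled male control, and 15.73 (15.41 to 15.98) in the labelled female pesticide group, against 15.83 (15.65 to 16.27) in labelled female control. The log2 fold changes of this probe were -0.09 (SE 0.15) and -0.20 (SE 0.15) in the labelled males and females. Probe A_55_P2522620 gave -0.12 and -0.13. The dim probe A_55_P2718343, designed on the transcript ENSMUST00000148398, gave 0.57 (SE 0.22, adjusted p = 0.063) in the labelled males and -0.39 (SE 0.22, adjusted p = 0.23) in the labelled females. This Elovl5 probe passed in the labelled males with the background-subtracted signal scaled to the 75th percentile, at 1.11 (SE 0.38, adjusted p = 0.035). It also passed without labelled male pesticide 1 or 4, labelled male control 4, labelled female pesticide 5 or labelled female control 6, at 0.57 to 0.71 (adjusted p = 0.025 to 0.049). The first 2 probes deviated together across arrays (r = 0.894 over 12 labelled pesticide and 0.972 over 12 labelled control arrays), while the third correlated with the brightest at 0.61 and 0.413, as a description of probes that share arrays.

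Scd1, the main stearoyl-CoA desaturase of mouse liver, had 2 probes under its name. The brighter ran from 16.66 through 17.59 to 18.16 in the labelled male pesticide group, against 16.89 through 18.06 to 18.17 in labelled male control. It ran from 17.31 through 17.69 to 17.91 in the labelled female pesticide group, against 17.68 through 17.84 to 18.04 in labelled female control. Medians were lower on labelled pesticide in both labelled sexes, and the ranges overlapped. Its log2 fold changes were -0.27 (SE 0.21, adjusted p = 0.40) and -0.22 (SE 0.21, adjusted p = 0.52). Scaled to the 75th percentile in place of quantile normalization, its mean over the labelled sexes passed at -0.43 (SE 0.15, adjusted p = 0.024), against -0.24 (SE 0.15, adjusted p = 0.22) here. No spot was marked as saturated on any array.

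The second Scd1 probe, A_55_P2743499, ran from 9.32 through 10.65 to 11.23 in the labelled male pesticide group, against 9.81 through 11.32 to 11.77 in labelled male control. It ran from 10.11 through 10.69 to 11.16 in the labelled female pesticide group, against 10.80 through 11.06 to 11.84 in labelled female control. The mean over the labelled sexes passed the threshold narrowly, with a log2 fold change of -0.56 (SE 0.22, adjusted p = 0.048). This call did not hold throughout: it passed in 10 of the 24 fits that left out 1 array, its adjusted p was 0.054 with slide as a block, and it was -1.27, -0.44 and 0.01 on slides 1, 2 and 3 alone. The 2 Scd1 probes deviated together across arrays (r = 0.977 over labelled pesticide and 0.934 over labelled control arrays), although their mm9 coordinates run in opposite orders. The second probe is thus placed on the strand opposite to the brighter one, and which transcript it reports was not tested. The probe named Scd3, a close relative of Scd1, lists accessions of both genes, so its values cannot be assigned to either.

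Fads2 and Fads1, the delta-6 and delta-5 desaturases, also gave no passing difference on any of their 8 probes. The brightest Fads1 probe ran from 13.89 through 14.42 to 14.77 in the labelled male pesticide group, against 13.26 through 14.37 to 14.75 in labelled male control, and from 14.12 through 14.45 to 14.94 in the labelled female pesticide group, against 13.82 through 14.18 to 14.47 in labelled female control. Its log2 fold changes were 0.14 (SE 0.20) and 0.36 (SE 0.20, adjusted p = 0.23). The brightest Fads2 probe ran from 14.13 through 14.47 to 14.80 in the labelled male pesticide group, against 13.52 through 14.94 to 15.24 in labelled male control, and from 14.10 through 14.62 to 14.98 in the labelled female pesticide group, against 14.41 through 14.67 to 14.79 in labelled female control. Its log2 fold changes were -0.23 (SE 0.21, adjusted p = 0.48) and -0.07 (SE 0.21, adjusted p = 0.86). All groups overlapped for both genes, and 3 of the 4 other Fads2 probes, A_65_P20641, A_55_P2739989 and A_66_P130115, gave values between -0.13 and 0.06.

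**Figure D3:**
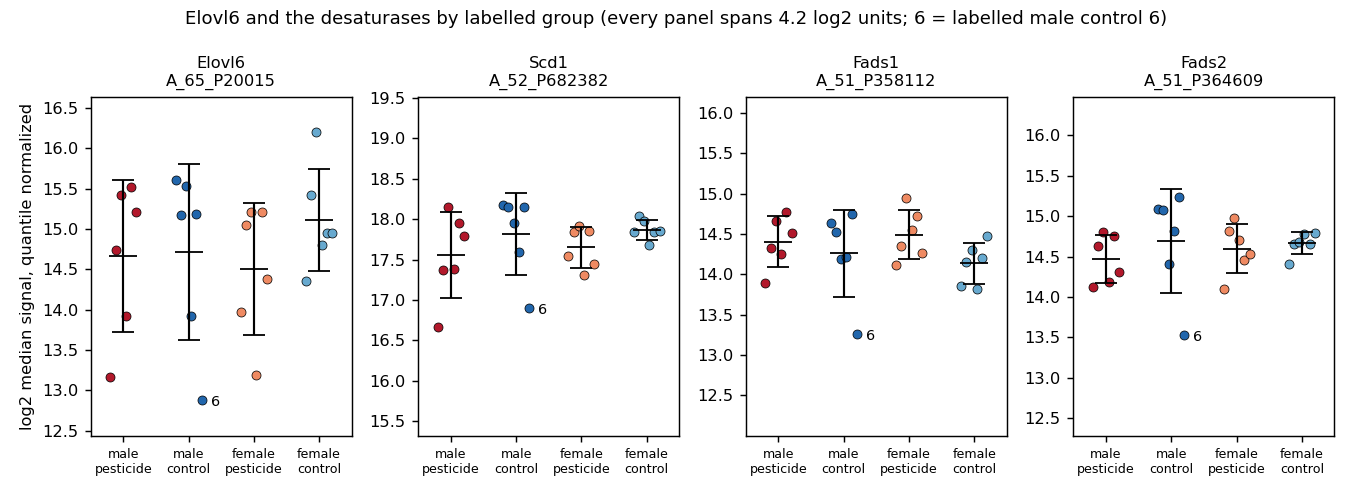
Log2 median signal (quantile normalized) of the brightest probe of Elovl6 and of each desaturase on every array, by labelled group; points are arrays in replicate order, bars the mean and SD of 6 arrays. The array marked 6, labelled male control 6, was the lowest of its group in all 4 panels, at 12.88 for Elovl6, 16.89 for Scd1, 13.26 for Fads1 and 13.52 for Fads2.

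The Fads1 probe on AK080706 and the Fads2 probe on AK031337 varied together from array to array, a pattern noticed after the values were seen and not tested. Their deviations from the group means correlated with each other at r = 0.938 over 12 labelled pesticide arrays and 0.961 over 12 labelled control arrays. The AK031337 probe correlated with the 4 other Fads2 probes at 0.252 to 0.503 and 0.358 to 0.52 in these sets. Those 4, of which A_65_P20641 and A_55_P2739989 also stand on clones, correlated among themselves at 0.9 or more. The AK080706 probe correlated with Fads1 A_55_P2897923 at 0.781 and 0.734 and with the brightest Fads1 probe at 0.406 and 0.664. With the same 2 Fads1 probes the AK031337 probe had 0.713 and 0.766, and 0.292 and 0.641. The AK080706 probe had a log2 fold change of 0.75 (SE 0.29, adjusted p = 0.07) in the labelled males and 0.06 in the labelled females, and the AK031337 probe 0.53 (SE 0.30, adjusted p = 0.22) and -0.09. The AK080706 probe of Fads1 passed in the labelled males without labelled male pesticide 1 (0.88, adjusted p = 0.042), labelled male control 3 (0.92, adjusted p = 0.029) or labelled female control 4 (0.75, adjusted p = 0.048). It also passed there in limma's fit with replicate number as a block (0.75, adjusted p = 0.032). These correlations are a description over probes that share arrays.

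**Figure D4:**
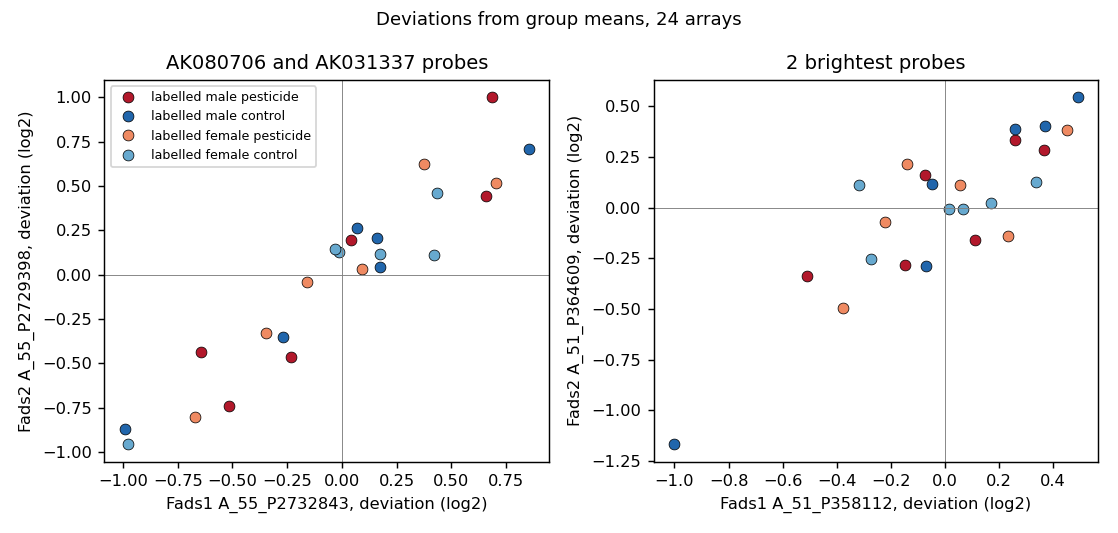
Deviations of a Fads1 probe (x axis) and a Fads2 probe (y axis) from their group means, in log2 units, over 24 arrays coloured by labelled group; the left panel pairs the AK080706 and AK031337 probes and the right panel the brightest probes. The left pair follows 1 line over all arrays (r = 0.938 and 0.961), and in the right panel labelled male control 6 stands apart at the lower left.

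No member probe passed in a comparison of the labelled sexes. The sex-linked transcripts did not separate these groups either: within each labelled diet 0 of 5 sex chromosome genes passed. These comparisons therefore cannot decide whether a member differs between male and female mice. The difference of the pesticide effect between labelled males and females passed for 0 of 18 member probes and for 0% of all probes in limma, where 1266 of 32078 had an unadjusted p under 0.05. Elovl3 gave -1.53 (SE 0.39, adjusted p = 0.52) and the dim Elovl5 probe 0.97 (adjusted p = 0.74). Between labelled males and females on pesticide 0 of 18 and 0% of all probes passed (1312 at the unadjusted level), and Elovl3 was at -1.08 (SE 0.28, unadjusted p = 0.00069, adjusted p = 0.82) with overlapping groups. Between labelled males and females on control 0 of 18 and 0% passed (1793 at the unadjusted level), with 0.45 (SE 0.28, adjusted p = 0.96) for Elovl3. The other member probes lay between -0.20 and 0.32 on pesticide and between -0.66 and 0.13 on control.

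Within groups, several members other than Elovl3 varied together from array to array. The deviations from group means were correlated for the 28 pairs of genes in each set of 12 arrays, 56 tests in all, with arrays permuted within groups. Of 28 pairs 5 passed over labelled pesticide arrays, all positive, and 12 passed over labelled control arrays, 11 of them positive. Over labelled pesticide arrays Elovl6 and Scd1, successive enzymes on palmitate and stearate, had r = 0.909 (permutation p = 0.00012, adjusted p = 0.005, rho = 0.902, p = 0.00038, adjusted p = 0.012), and r = 0.849 without the 2 arrays farthest from the median of Elovl6. Elovl2 and Elovl5 had r = 0.869 (permutation p = 0.00018, adjusted p = 0.005, rho = 0.881, p = 0.00043, adjusted p = 0.012), and 0.745 without 2 arrays. The same pair had r = 0.598 over labelled control arrays (permutation p = 0.09, adjusted p = 0.15); the difference between the sets was not tested.

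Over labelled control arrays the highest-ranking pairs by p were 4 others. Fads1 and Fads2 had r = 0.908 (permutation p = 0.0023, adjusted p = 0.021, rho = 0.818, p = 0.0025, adjusted p = 0.035), and Fads1 and Scd1 had r = 0.897 (permutation p = 0.0027, adjusted p = 0.021, rho = 0.762, p = 0.0092, adjusted p = 0.047). Elovl2 and Scd1 had r = 0.835 (permutation p = 0.0014, adjusted p = 0.02, rho = 0.776, p = 0.0024, adjusted p = 0.035), and Elovl1 and Elovl2 had r = 0.809 (permutation p = 0.00083, adjusted p = 0.015, rho = 0.776, p = 0.0065, adjusted p = 0.044). Without the 2 arrays farthest from the median of the first gene these became 0.643, 0.639, 0.582 and 0.598. Over labelled pesticide arrays the same 4 pairs had r = 0.737, 0.789, 0.0271 and -0.593 in this order. Their adjusted permutation p there was 0.04, 0.021, 0.97 and 0.1, and the difference between the sets was not tested. By Spearman's rho 6 rather than 12 control pairs passed and the pesticide count stayed at 5. With 4 arrays of a set on a slide no correlation was computed within slides. With slide removed as well as group, 7 and 16 pairs passed over labelled pesticide and labelled control arrays, against 5 and 12. That permutation still moved arrays across slides, so its p-values are approximate and the rise is not read as a result.

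**Figure D5:**
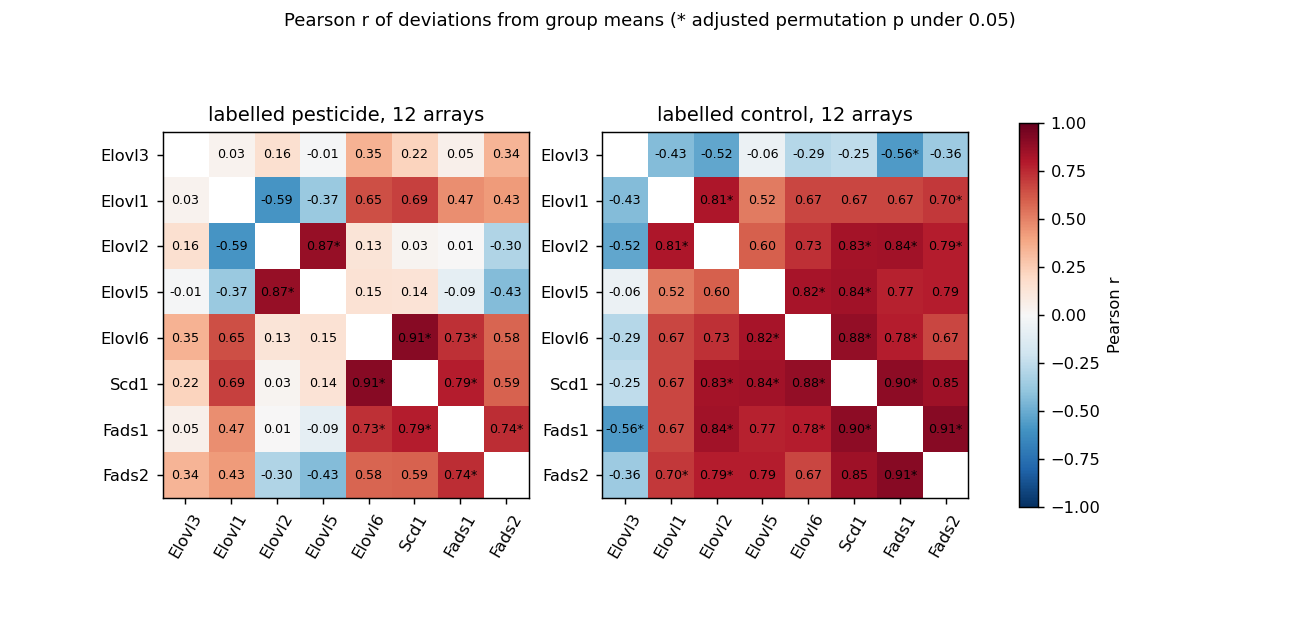
Pearson r between members, from deviations of log2 signals from group means, over 12 labelled pesticide arrays (left) and 12 labelled control arrays (right); an asterisk marks an adjusted permutation p under 0.05. The row of Elovl3 is pale on the left and mostly blue on the right, while Elovl6, Scd1 and Fads1 are red with each other in both sets (r = 0.73 to 0.909).

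Labelled male control 6 stood out across the members, as noticed after the values were seen. This array was the lowest of its group for 17 of the 17 other tested member probes and the highest for Elovl3, whereas it was the lowest for 20.9% of all tested probes. Labelled male pesticide 1 was the lowest of its group for 13 of the 17, against 19% of all tested probes. Several of these probes share a gene or vary together, so they are not separate observations. Without labelled male control 6, r was 0.744 for Fads1 and Fads2, 0.709 for Fads1 and Scd1, 0.675 for Elovl2 and Scd1 and 0.687 for Elovl1 and Elovl2. Without it the comparison in the labelled males called 3 member probes in place of 1, adding Fads2 at -0.46 (SE 0.16, adjusted p = 0.043) and the second Scd1 probe at -0.87 (SE 0.28, adjusted p = 0.032). Elovl3 and Fads1 correlated negatively over labelled control arrays (r = -0.565, permutation p = 0.003, adjusted p = 0.021; rho = -0.692, p = 0.015, adjusted p = 0.055), a pair named after its values were seen. It was -0.694 without the 2 farthest arrays, -0.584 without labelled male control 6, and 0.0508 over labelled pesticide arrays.

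The genes whose array-to-array deviations were most like those of Elovl6, Scd1 and Elovl3 were listed by Pearson r. Over 12 labelled control arrays and 14301 other named genes, Elovl6 was most like Acss2, which makes acetyl-CoA from acetate (r = 0.983), the acyl-CoA synthetase Acsl5 (0.976), the ATP citrate lyase Acly (0.965) and the acetyl-CoA carboxylase Acacb (0.964). The same 4 genes had r = 0.85 to 0.912 with it over labelled pesticide arrays. Scd1 was most like Echdc1, an ethylmalonyl-CoA decarboxylase (0.972), the cobalamin adenosyltransferase Mmab (0.97), the Scd3 probe that also lists Scd1 (0.96) and the cytochrome b5 reductase Cyb5r3 (0.953), with r = 0.709 to 0.957 over labelled pesticide arrays. Elovl3 was most like the sorting nexin Snx21 (0.962), the endothelin-converting enzyme Ece1 (0.931), the thymidine phosphorylase Tymp (0.928) and the synaptotagmin-like Sytl1 (0.926), and over labelled pesticide arrays these had r = -0.68 to -0.213. Without labelled female control 6, the array where Elovl3 was farthest from its group mean, they had r = 0.75 to 0.896. These values are picked as the highest of many over 12 arrays and are a description.

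Other genes of the pathway passed in both directions, at shares not far above those of all probes. Of 67 listed genes in 9 lists 64 were tested, and over the mean of the labelled sexes 14 were higher on labelled pesticide, 13 were lower and 37 did not pass. The share that passed was 42.2%, beside 36.1% of all probes, with a median log2 fold change of -0.03 beside -0.03 over all probes. Each listed gene stood by its brightest tested probe, so these shares rest on unlike sets of probes. The labelled males gave 10 higher and 9 lower genes of 64 (29.7%, beside 22.2% of all probes), and the labelled females 7 higher and 8 lower (23.4%, beside 18.3%). In the elongation cycle Hacd1 and Hacd4, 3-hydroxyacyl-CoA dehydratases, were higher by 0.41 (SE 0.07, adjusted p = 0.00015) and 0.60 (SE 0.12, adjusted p = 0.00034), and Hsd17b12, the 3-ketoacyl-CoA reductase, was at -0.39 (SE 0.08, adjusted p = 0.00054). Of 6 cycle partners tested 2 were higher and 1 lower. Elovl7, another elongase, was higher in the labelled males at 0.59 (SE 0.17, adjusted p = 0.015), was at 0.00196 (SE 0.17, adjusted p = 1) in the labelled females and did not pass over their mean at 0.30 (adjusted p = 0.058). The interaction for Elovl7 was 0.59 (SE 0.24, adjusted p = 1). Its mean passed with the background-subtracted signal scaled to the 75th percentile, at 0.79 (adjusted p = 0.015), and without labelled male pesticide 1 or 5, labelled male control 2, labelled female pesticide 3 or 4 or labelled female control 4, at 0.32 to 0.36 (adjusted p = 0.016 to 0.046). Elovl4 was too dim to be tested.

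Among the 7 other desaturases 3 were higher and 1 lower. Scd2, the stearoyl-CoA desaturase most abundant in brain, ran from 9.07 through 11.05 to 11.56 in the labelled male pesticide group, against 7.95 through 8.92 to 9.88 in labelled male control, and from 10.31 through 10.68 to 12.11 in the labelled female pesticide group, against 8.98 through 9.30 to 10.48 in labelled female control. The groups overlapped in both labelled sexes, and the mean log2 fold change was 1.57 (SE 0.27, adjusted p = 9.3e-05). Fads3, a sphingoid base desaturase, was at 0.35 (SE 0.10, adjusted p = 0.0074) and Fads6 at -0.14 (SE 0.05, adjusted p = 0.044), a call that was lost in 21 of 39 alternative settings. The cytochrome b5 gene Cyb5a, an electron donor of the desaturases, was at 0.16 (SE 0.06, adjusted p = 0.037) and turned to -0.063 (adjusted p = 0.58) when arrays were scaled to the 75th percentile. The 4 other electron donors did not pass, among them Cyb5r3 at -0.23 (adjusted p = 0.08) and Cyb5b at -0.18 (adjusted p = 0.12). With the scaling to the 75th percentile Cyb5r3 passed at -0.37 (adjusted p = 0.0053) and Cyb5b at -0.25 (adjusted p = 0.038).

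Genes that feed substrate into the elongases and desaturases were lower, higher or did not pass. Of 8 lipogenesis genes only the mitochondrial citrate carrier Slc25a1 passed, at -0.41 (SE 0.06, adjusted p = 1.7e-05). Acss2 was at 0.43 (SE 0.26, adjusted p = 0.21) and Mlycd, malonyl-CoA decarboxylase, at -0.07 (adjusted p = 0.36). Of 6 acyl-CoA synthetases and transporters Acsl1 and Acsl4 were lower, at -0.66 (SE 0.10, adjusted p = 1.2e-05) and -0.60 (SE 0.10, adjusted p = 4e-05), and 2 were higher, among them Slc27a5 at 0.18 (adjusted p = 0.019), which turned to -0.046 (adjusted p = 0.68) with scaling to the 75th percentile. Of 14 regulators Nr1h2, a liver X receptor, was at 0.20 (SE 0.05, adjusted p = 0.0026) and Insig2 at -0.34 (SE 0.12, adjusted p = 0.029). The other 12 did not pass, among them Mlxipl, the carbohydrate response factor, at 0.17 (adjusted p = 0.071).

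Genes that shorten the products or place them in phospholipids went both ways. In the peroxisomal list of 10, 3 were higher and 4 lower. Abcd2, a peroxisomal importer of very long chain acyl-CoA, ran from 9.35 through 9.52 to 10.20 in the labelled male pesticide group, against 6.71 through 7.48 to 7.90 in labelled male control, and averaged 9.78 ± 0.12 in the labelled female pesticide group, against 8.03 ± 0.53 in labelled female control (SD, n = 6). The labelled diets did not overlap for Abcd2, and its mean log2 fold change was 2.05 (SE 0.15, adjusted p = 1.9e-10). The thiolases Scp2 and Acaa1a were at -0.25 (SE 0.05, adjusted p = 0.00019) and -0.51 (SE 0.10, adjusted p = 0.00023). Of 7 phospholipid remodelling genes 2 were higher, among them the lysophospholipid acyltransferase Lpcat2 at 0.83 (SE 0.15, adjusted p = 0.00015), and 3 were lower, among them the acyltransferase Mboat1 at -0.85 (SE 0.17, adjusted p = 0.00045) and the phospholipase Pla2g6 at -0.37 (SE 0.08, adjusted p = 0.00074).

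Markers of other liver cells were counted over the mean of the labelled sexes, each by its brightest tested probe, where 36.1% of all tested probes, bright or dim, passed. Of the Kupffer cell and macrophage markers 7 of 8 were higher on labelled pesticide, among them Vsig4 at 1.76 (SE 0.18, adjusted p = 7.1e-08). The endothelial markers were higher in 6 of 6, among them Stab2 at 0.63 (SE 0.08, adjusted p = 1.4e-06), and the stellate cell markers in 5 of 6, among them Lrat at 0.66 (SE 0.12, adjusted p = 0.00011). Of the B, T and NK cell markers 3 of 6 were higher, and of the bile duct markers 1 of 5 was higher and 1 lower. Of 3 erythroid markers tested 2 were higher and Alas2, the erythroid enzyme of haem synthesis, was lower at -2.32 (SE 0.15, adjusted p = 1.3e-11). Of 7 hepatocyte markers tested 1 passed, the fibrinogen gene Fgb at 0.23 (SE 0.06, adjusted p = 0.0054). With scaling to the 75th percentile Fgb was at 0.033 (adjusted p = 0.79), Apoa1 passed at -0.24 (adjusted p = 0.0058), and the erythroid marker Hba-a1 and the bile duct marker Epcam no longer passed at 0.33 (adjusted p = 0.11) and 0.32 (adjusted p = 0.054). The summed level of the macrophage markers was 15.01 to 15.96 in the labelled male pesticide group, against 13.69 to 15.84 in labelled male control, and 14.48 to 16.29 in the labelled female pesticide group, against 13.36 to 15.81 in labelled female control. The part of these cells in the results above was not tested.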

How the data were processed

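Liver RNA from 24 mouse samples, 4 labelled groups of 6, was read on Agilent SurePrint G3 8x60K arrays. The scanner files give fluorescence intensity per spot, per the file headers. Spots were extracted with Agilent Feature Extraction 10.10.1.1, per the submitters' processing notes. A table of log2 values was deposited too, which, per the labels, the authors filtered, log2 transformed and quantile normalized; their filter is not given in the sources used here.

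From the scanner files the median signal of 62976 spots per array was taken, without 3671 control spots. Spots marked as non-uniform or population outliers (91 to 157 per array) were set to missing, spots of a probe were averaged, and 56605 probes were quantile normalized on the log2 scale without background subtraction. A probe was tested when well above background on at least 4 of 6 arrays of at least 1 group (32078 probes). With limma 3.58.1 (R 4.3.3) a linear model with a mean for each group took in the 24 arrays, and p-values were Benjamini-Hochberg adjusted over 32078 probes, with a threshold of 0.05, two-sided. The fit was tested on simulated data. Arrays give no counts, so their number limits the precision.

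Each gene's brightest tested probe stood for it. Correlations used 100000 permutations of arrays within groups and adjustment over 56 pairs. The genes named are every member, up to 3 genes per list with the smallest p in the mean contrast, the 4 genes most like Elovl3, Elovl6 and Scd1, and the 6 member pairs with the smallest p. The likeness search was narrowed, after the values could be seen, to symbols held by a RefSeq gene table. The members and lists were chosen with earlier results of these data known. The summed level of a marker list is the log2 of the sum of its linear signals. Alternatives were normexp background correction (offset 50), scaling of the median or processed signal to the 75th percentile, other filters on dim probes, outlier spots kept, slide or replicate number as a block, each slide alone, eBayes with a trend and robust moderation, a fit to the compared arrays alone, the deposited table, the mean of a gene's probes, and leaving out each array. Correlations without labelled male control 6 were added after seeing the data.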

Additional observations from a re-analysis of the deposited data

Results flagged for a closer look

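In 10 of 72 groups of 6 arrays, 1 array stood apart from the other 5 by more than Dixon's 95% critical value allows. Each group holds the values of 1 member probe. For independent groups chance gives about 1 in 20. The 72 groups share arrays, and several are probes of 1 gene, so 10 of 72 cannot be set against that rate. Labelled male control 6 was low in 3 of them: Elovl1 A_55_P2151273 at 13.81 (others 14.18 to 14.33), Elovl5 A_51_P505493 at 14.92 (others 15.66 to 15.89) and Elovl5 A_55_P2522620 at 8.19 (others 8.95 to 9.33). Elovl3 was low in labelled female control 6, at 13.43 where the others were 14.64 to 15.22. Labelled female control 4 was low for Fads1 A_55_P2732843 at 10.35 (others 11.30 to 11.77) and Fads2 A_55_P2729398 at 10.45 (others 11.52 to 11.87). Elovl1 A_55_P2151273 was low in labelled male pesticide 1, at 13.80 (others 14.13 to 14.32). Elovl5 A_51_P505493 was low in labelled male pesticide 2, at 15.08 (others 15.52 to 15.79). Fads2 A_51_P364609 was low in labelled female control 1, at 14.41 (others 14.66 to 14.79). Elovl5 A_55_P2718343 was high in labelled male control 4, at 6.67 (others 5.65 to 6.02). The causes were not tested.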

How the results depend on the processing

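Over 39 alternative settings, 24 of which left out 1 array, the brightest probes of the members gave 1856 results. Of these 1845 kept their call, 11 newly passed, and none lost a call or turned with a call. In 92 results the sign changed without a call. Elovl3 passed in the diet comparisons under each, with log2 fold changes from -9.38 to -8.15 in the labelled males, -7.38 to -6.39 in the labelled females and -8.38 to -7.48 over their mean. The newly passing results were of Elovl1, Scd1, Elovl5 and Fads2, and Scd1 reached -1.14 in the labelled males on slide 1 alone. In the same comparison Scd1 was at -0.00072 on slide 2 and 0.34 on slide 3. Elovl6 was at -1.43, -0.05 and 1.33 on slides 1, 2 and 3. The second Scd1 probe lost its call in 18 settings and turned to 0.010 on slide 3. Among named genes of the other lists, scaling the median or the processed signal to the 75th percentile turned Cyb5a to -0.063 and -0.077 and Slc27a5 to -0.046 and -0.060. The same scalings ended the calls of Fgb and Hba-a1 and brought Apoa1, Cyb5r3 and Cyb5b past the threshold; Epcam lost its call with the median and Hbb-bt with the processed signal. Among all 1915 results of the named list genes 105 lost a call, over 34 genes, and 26 newly passed; Fads6 lost its call in 21 settings.

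Member probes called over the mean of the labelled sexes numbered 4 when scaled to the 75th percentile, 4 when the processed signal was used so, and 1 with no filter on dim probes, a slide block, slide 2 or 3 alone, or eBayes with trend and robust settings. In the labelled males they numbered 2 with the processed signal, 2 with the replicate block and 3 on slide 1, and in the labelled females 2 with the processed signal. Leaving out 1 array gave 1 to 3 in the labelled males (3 without labelled male pesticide 1 or labelled male control 6; 2 without labelled male pesticide 4, labelled male control 3 or 4, labelled female pesticide 5 or labelled female control 4 or 6), 1 to 2 in the labelled females (2 without labelled female control 5) and 1 to 4 over their mean (4 without labelled male control 6, 1 without each of 14 arrays).

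Slides alone, with 2 arrays per group, called 1054, 583 and 459 of all probes in the labelled males, 1039, 320 and 347 in the labelled females and 3496, 1533 and 1792 over their mean. These counts differ between slides that hold equal numbers of arrays, and the cause was not tested. The comparison of labelled males and females called 2 probes within labelled pesticide on slide 1, and leaving out 1 array gave 0 to 1 in each diet. Scaling the median signal to the 75th percentile left 38.1% of calls in the labelled males higher, against 52.1%, with a median shift over all probes of -0.08.

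Whether replicate numbers pair the samples was not tested. Same-numbered arrays of different groups had correlations of -0.118 to 0.337 (median 0.0781). Arrays of other numbers and other groups had -0.343 to 0.329 (median -0.0216), and those of them on the same slide had a median of -0.00637. The replicate block moved the labelled male count as given.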
